A study of Mus musculus with 14 samples.

Results

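The distal part of mouse chromosome 4 holds a cluster of zinc finger genes, and 1302 regions of the authors' deposited tables lay there: 473 of G9a, 347 of H3K9me2 and 482 of H3K27me3, of 1186054 regions in all. The members were chosen by position, as regions whose midpoint lies at chr4:145000000-147600000 (mm10), a window of 2.6 Mb. The window itself had been picked from the measured differences, because the regions there leaned to one side. The difference between the pairs in the window is therefore described here and not tested. The 3 Mb on either side served for comparison, with 2011 regions before the window and 1056 after it.

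The series compared chromatin of cardiomyocytes (heart muscle cells) of C57BL/6J mice after a sham operation and 1 week after transverse aortic constriction (TAC), a narrowing of the aorta that loads the left ventricle. Sex and age are not given in the labels. Chromatin immunoprecipitation followed by sequencing used antibodies against G9a (Sigma G6919), H3K9me2 (Abcam ab1220) and H3K27me3 (Millipore 07-449), with 2 biological replicates in each condition for every antibody, and 2 inputs. Each table lists only regions that the authors called as differing, with 2 values for a first pair of libraries and 2 for a second pair. The tables do not name the pairs, so directions are given by pair. If the first pair is sham, a region higher in the first pair was lower after TAC. With the opposite order the sense turns round. All region values below are those of the authors' deposited tables, the first pair before the second. Should the material hold other heart cells besides cardiomyocytes, fewer cells of a type and less of a mark per cell could not be told apart.

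Zinc finger genes of this kind encode DNA-binding proteins with arrays of C2H2 fingers, most of them with a KRAB domain that recruits the corepressor Trim28 and, through it, histone H3K9 methyltransferases. Many of these proteins bind retrotransposons, and their clusters grow by local duplication, so neighbouring genes resemble each other closely. G9a, encoded by Ehmt2, places H3K9me1 and H3K9me2 together with its partner GLP, encoded by Ehmt1. H3K27me3 is placed by Polycomb repressive complex 2. Both marks are found at silent genes.

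The gene table of GRCm38.p6 places 77 genes in the window, of which 13 are counted as zinc finger genes. Here and on other chromosomes these are protein-coding genes with the symbol Zfp, Zkscan or Zscan and a number, or Rex2. Proteins were not searched for fingers, so genes under other symbols, such as Gm42346 and Gm13212, were not checked. In map order these are Zfp990, Zfp980, Zfp987, Zfp600, Zfp992, Zfp981, Zfp993, Rex2, Zfp978, Zfp991, Zfp988, Zfp982 and Zfp985. A further 51 are pseudogenes, 6 of them of vomeronasal receptors, and 8 are long noncoding RNA genes. Of the 5 other protein-coding genes, Vps13d, Tnfrsf1b, Tnfrsf8 and Gm42346 lie before the first zinc finger gene. Vps13d encodes a lipid transfer protein, and Tnfrsf1b and Tnfrsf8 encode tumour necrosis factor receptors. Zfp993 (chr4:146512849-146991471) overlaps parts of Zfp981 and Rex2, and Zfp978 (chr4:147124882-147392027) spans Zfp991 and Zfp988. A region there can thus belong to several annotations. Exons and introns were not told apart.

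How alike these genes are is seen at their promoters, and it bears on the values because reads from near-identical copies cannot be placed uniquely. RefSeq promoters (250 bases before to 50 after the start, GRCm38.p6) were at hand for 9 of the 13 genes, 12 promoters in all, and not for Zfp990, Zfp992, Zfp978 and Zfp991. Those shown are of the zinc finger genes with the smallest deposited p, in that order, as far as a promoter was listed. Of the 3 starts of Zfp982, the one overlapped by regions of all 3 tables is printed. Capitals mark the longest run that a promoter shares, letter for letter, with that of another of these 4 genes.
Zfp993, chr4:146512599-146512898, + strand: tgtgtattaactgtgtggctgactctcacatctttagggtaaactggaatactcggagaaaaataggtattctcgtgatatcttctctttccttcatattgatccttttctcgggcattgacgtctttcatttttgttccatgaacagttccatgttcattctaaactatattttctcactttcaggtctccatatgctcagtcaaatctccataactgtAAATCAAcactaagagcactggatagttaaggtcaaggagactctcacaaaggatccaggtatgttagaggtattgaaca
Zfp981, chr4:146514670-146514969, + strand: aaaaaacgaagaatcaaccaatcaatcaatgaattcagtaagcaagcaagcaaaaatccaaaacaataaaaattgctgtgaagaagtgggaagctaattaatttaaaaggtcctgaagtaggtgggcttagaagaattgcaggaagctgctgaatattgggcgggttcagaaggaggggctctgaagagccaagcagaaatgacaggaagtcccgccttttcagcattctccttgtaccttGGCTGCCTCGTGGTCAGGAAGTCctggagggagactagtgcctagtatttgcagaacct
Zfp982 start 2, chr4:147492167-147492466, + strand: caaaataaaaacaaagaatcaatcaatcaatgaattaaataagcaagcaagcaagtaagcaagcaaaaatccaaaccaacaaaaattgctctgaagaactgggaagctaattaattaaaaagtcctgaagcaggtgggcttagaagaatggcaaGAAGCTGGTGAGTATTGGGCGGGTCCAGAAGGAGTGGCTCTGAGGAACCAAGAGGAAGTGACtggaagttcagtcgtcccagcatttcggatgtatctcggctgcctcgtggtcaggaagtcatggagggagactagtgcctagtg
Zfp980, chr4:145670447-145670746, + strand: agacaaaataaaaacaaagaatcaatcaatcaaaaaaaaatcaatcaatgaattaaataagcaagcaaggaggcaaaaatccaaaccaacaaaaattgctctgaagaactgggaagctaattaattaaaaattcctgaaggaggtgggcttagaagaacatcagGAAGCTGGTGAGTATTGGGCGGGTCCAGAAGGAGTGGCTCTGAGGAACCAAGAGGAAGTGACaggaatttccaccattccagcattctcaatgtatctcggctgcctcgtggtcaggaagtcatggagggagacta

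Zfp980 and Zfp982 share a run of 62 bases within promoters that are 84.5% identical. The run in Zfp981, shared with Zfp980, has 23 bases, and that in Zfp993 has 7. The Zfp993 promoter resembled none of the others (identity at most 47.8%). The promoters of Rex2 and of Zfp600 start 1 were 99.3% identical, with a common run of 285 bases. A run of 50 bases that also occurs at another gene's promoter was found in 8 of the 12 promoters, against 7.91% of all 32851 promoters of the table. CpG dinucleotides numbered 1 to 6 per promoter except at Zfp982 start 1, which had 16, beside a median of 7 over all promoters. The sources used here do not say how the authors placed reads with several positions, so values at single genes of the cluster are uncertain.

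In the window most regions were higher in the first pair in all 3 tables. For G9a this held for 342 of 473 regions, 72.3% (95% Wilson interval 68.1 to 76.1), against 55.5% of the whole table. For H3K9me2 it held for 274 of 347 regions, 79.0% (74.4 to 82.9), against 55.6%. For H3K27me3 it held for 349 of 482 regions, 72.4% (68.3 to 76.2), against 57.3%. The intervals cover counting error only, and neighbouring regions are not independent. In the flanks the shares were 43.1%, 51.2% and 47.4%. The median log2 difference (second pair mean over first, each plus 1) was -0.81 for G9a, -0.98 for H3K9me2 and -0.82 for H3K27me3 in the window. It was 0.66, -0.53 and 0.41 in the flanks, and -0.67, -0.66 and -0.58 over the whole tables. Since the tables hold few small differences, these medians move between 2 groups of regions, and the shares describe the shift more directly.

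The libraries of a pair did not always move together. A region is called separated where the lower value of the higher pair lies above the higher value of the other pair. In the G9a table, 37.6% of the window regions were separated with the first pair higher (33.2% of the whole table), and 52 of the 473 with the second higher (28.1% of the whole table). In the H3K9me2 table the shares were 59.9% (38.5%) and 14.4% (29.4%). In the H3K27me3 table they were 52.1% (38.7%) and 17.2% (30.5%). Both histone marks thus lay well above the background. For G9a the share separated with the first pair higher lay near the background, and the shortage of regions separated the other way was the larger departure.

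One G9a library stands apart: the first of the second pair is listed at 0 in 9.34% of all its regions, against 0.163% to 1.40% in the other G9a libraries. Without it, 60.7% of the G9a window regions were higher in the first pair, against 51.8% of the whole table and 40.5% of the flanks. The median log2 difference was then -0.21, against -0.06 over the whole table, and 40.0% of regions were separated with the first pair higher, against 36.4%. Without the other library of the second pair, the share was 80.5%, against 59.6% of the whole table, and the median was -1.66. The size of the G9a difference thus rests on which library of the second pair is used, while the share stayed above that of the flanks in both cases.

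**Figure D1:**
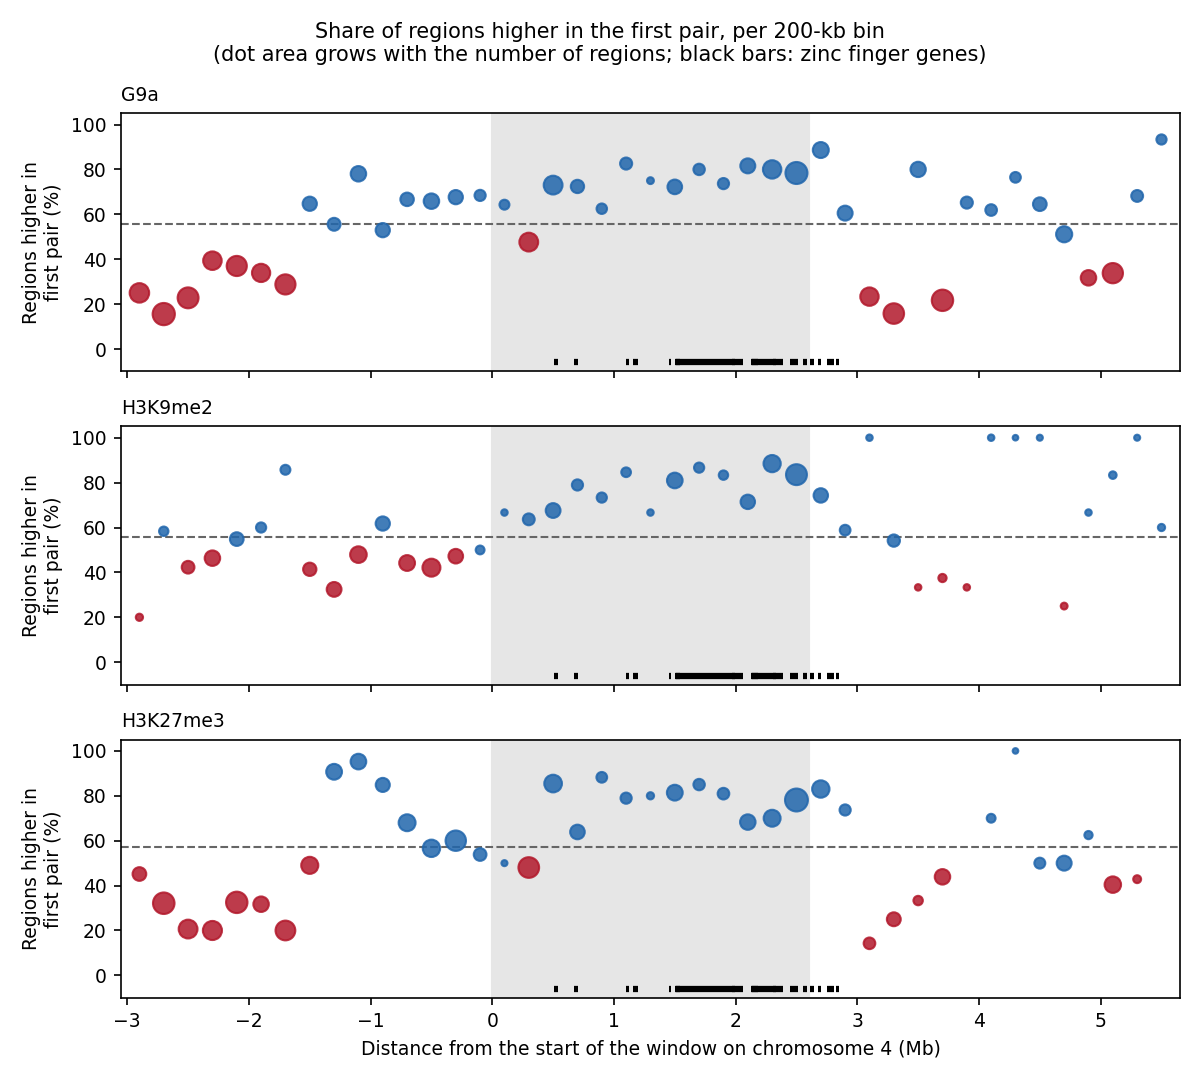
Share of regions higher in the first pair (y axis, percent) in bins of 200 kb along chromosome 4, by distance from the window start (x axis, Mb), for G9a, H3K9me2 and H3K27me3. The window is shaded, the dashed lines are the whole-table shares of 55.5%, 55.6% and 57.3%, blue dots are bins at 50% or more and red dots bins below, and dot area grows with the number of regions. From 0.4 Mb into the window to its end every bin lies above the dashed line in all 3 panels.

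Within the window the lean to the first pair was found over the zinc finger genes. Before Zfp990, the first of them, the window holds Vps13d, Tnfrsf1b, Tnfrsf8 and Gm42346, with a long noncoding RNA gene and pseudogenes. There 57.4% of the G9a, 57.8% of the H3K9me2 and 59.3% of the H3K27me3 regions were higher in the first pair, near the background. Between the start of Zfp990 and the end of Zfp985 (chr4:145510759-147585201) the shares were 76.7%, 82.0% and 76.4%. They stayed high beyond the window as far as the distal flank holds zinc finger genes (Zfp979, Zfp534, Zfp984 and Zfp933, to position 147849126), with 83.3% of 54 G9a, 71.7% of 46 H3K9me2 and 80.0% of 65 H3K27me3 regions. Past the last of them the shares were 42.4%, 58.9% and 42.1%.

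In bins of 200 kb from 0.4 Mb into the window to its end, the share higher in the first pair was 62.5% to 82.6% in the G9a table, 66.7% to 88.5% in the H3K9me2 table and 63.9% to 88.2% in the H3K27me3 table. The bin at 1.2 Mb, which follows Zfp600, held only 4, 3 and 5 regions. Bins above the whole-table share numbered 12 of 13 in the window and 16 of 30 in the flanks for G9a, 13 of 13 and 14 of 30 for H3K9me2, and 11 of 13 and 10 of 28 for H3K27me3. Bins with shares like those of the cluster thus also lay outside it. In the proximal flank, H3K27me3 bins between 1.4 and 0.8 Mb before the window reached 84.8% to 95.2%, where the H3K9me2 shares were 32.4% to 61.8%. G9a bins in the last 0.8 Mb before the window had 65.9% to 68.4%. Higher G9a shares were found 1.2 Mb before the window (78.0% of 41 regions) and, after it, at 2.6 Mb from its start (88.6% of 44), where zinc finger genes of the distal flank lie, at 3.4 Mb (80.0% of 40), 4.2 Mb (76.5% of 17) and 5.4 Mb (93.3% of 15). Regions next to the borders are given as they stand. The last G9a region before the window (chr4:144998701-144999600) had 168 and 151 in the first pair against 0 and 146, and the first one inside (chr4:145013851-145014150) had 67 and 40 against 0 and 39. The last one inside (chr4:147599201-147599600) had 26 and 101 against 17 and 175, and the first one after (chr4:147600401-147601100) had 188 and 160 against 69 and 69. In the H3K9me2 table the last region before (chr4:144979151-144979850) had 82 and 46 against 138 and 129, and the first inside (chr4:145002201-145002800) 46 and 57 against 149 and 60. The last inside (chr4:147599551-147599900) had 67 and 68 against 56 and 25, and the first after (chr4:147600501-147600850) 77 and 57 against 17 and 52. In the H3K27me3 table the proximal border falls in a stretch without regions, between chr4:144872051-144872900 (282 and 168 against 103 and 172) and chr4:145197001-145198200 (223 and 320 against 119 and 96). The last H3K27me3 region inside (chr4:147598151-147599750) had 453 and 530 against 376 and 160, and the first after (chr4:147601151-147601650) 155 and 75 against 94 and 18.

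Regions in a zinc finger gene and regions in no annotated gene leaned alike, and regions in other genes did not. Inside zinc finger genes 79.4% of G9a, 82.9% of H3K9me2 and 77.0% of H3K27me3 regions were higher in the first pair. In no annotated gene the shares were 72.5%, 80.2% and 75.4%. In other annotated genes they were 57.0%, 55.9% and 53.9%. Many regions of this class lie before Zfp990, at Vps13d, Tnfrsf1b, Tnfrsf8 and Gm42346, so kind of gene and position were not told apart. In vomeronasal receptor pseudogenes alone there were few regions, 13, 16 and 17, of which 8, 12 and 11 were higher in the first pair. The longest unbroken run of H3K9me2 regions higher in the first pair counted 40 and spanned 182.1 kb (chr4:147276101-147458200), over the distal part of Zfp978, Zfp988 and the start of Zfp982. The longest such G9a run counted 20 regions over 48.7 kb at Zfp985, and the longest such H3K27me3 run 17 over 35.9 kb at Zfp982. The longest runs higher in the second pair counted 8, 3 and 7 regions and lay around Tnfrsf8. An H3K9me2 run of equal length, 3 regions, lay inside Zfp981 (chr4:146506901-146510400).

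Over the window as a whole, long regions leaned further to the first pair in the G9a and H3K9me2 tables. This class was looked at after the values had been seen. Of the 50 G9a regions of 2 kb or longer in the window, 49 were higher in the first pair, while only 5.12% of the 11713 G9a regions of that length in the whole table were. In the flanks 4 of 84 were. The window held 8.17% of all long G9a regions higher in the first pair. Without the G9a library that stands apart, 44 of the 50 remained higher in the first pair, against 6.15% of the whole table. Of the 36 long H3K9me2 regions, 35 were higher in the first pair, against 38.5% of the 845 in the whole table. The window held 10.8% of all such regions higher in the first pair. The flanks held only 4 long H3K9me2 regions, 3 of them higher in the first pair. Of the 65 long H3K27me3 regions, 49 were higher in the first pair, against 17.5% of 48557. This 75.4% was close to the 72.4% of H3K27me3 regions of any length in the window. In the flanks 18 of 187 were. From the first to the last zinc finger gene, 46 of 52 long H3K27me3 regions (88.5%) were higher in the first pair, against 76.4% of any length. Before the first zinc finger gene 3 of 13 were. Separation with the first pair higher was seen in 25 of the 49 G9a, 34 of the 35 H3K9me2 and 47 of the 49 H3K27me3 regions. The only long G9a region higher in the second pair lay at Tnfrsf8 (chr4:145303801-145306650), and the only such H3K9me2 region within Zfp978 (chr4:147219851-147222650).

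**Figure D2:**
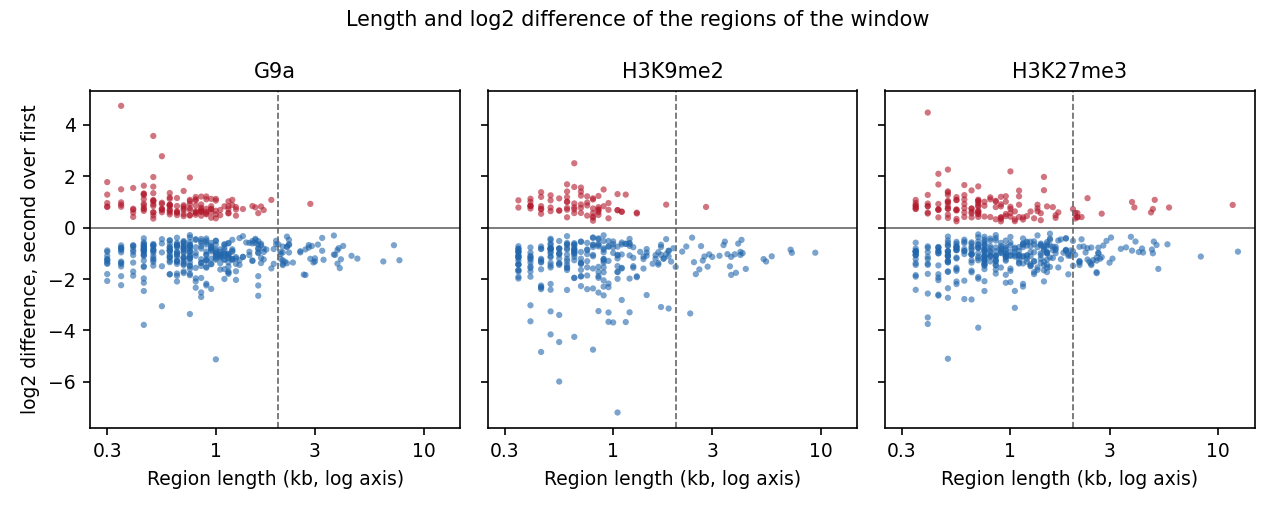
Length (x axis, kb, log axis) and log2 difference, second pair over first (y axis), of the regions of the window for G9a, H3K9me2 and H3K27me3, with regions higher in the first pair in blue and in the second in red. Right of the dashed line at 2 kb, 49 of 50 G9a, 35 of 36 H3K9me2 and 49 of 65 H3K27me3 regions lie below 0, and 2 H3K9me2 regions with both second-pair values at 0 are not drawn.

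Summed over the window and divided by the sum over both flanks, each library gives a ratio that its own scale does not touch. For G9a the ratios were 0.755 and 0.810 in the first pair, against 0.225 and 0.518 in the other. For H3K9me2 they were 2.04 and 1.74 against 1.11 and 1.03. For H3K27me3 they were 0.493 and 0.481 against 0.292 and 0.240. In each table both first-pair libraries lay above both second-pair libraries, and relative to its mean the spread within a pair was widest in the second G9a pair. With 2 libraries a pair, an exact two-sided permutation test cannot go below p = 0.333. Window and flanks differ in how much sequence their regions cover. Per covered kb, which multiplies all ratios of a table by the same number and leaves the comparison between pairs as it is, the ratios were 1.86 and 2.0 against 0.556 and 1.28 for G9a, 2.08 and 1.78 against 1.13 and 1.05 for H3K9me2, and 1.40 and 1.37 against 0.831 and 0.684 for H3K27me3. The window sums themselves did not separate the pairs for G9a (108081 and 146827 against 48042 and 114671). They did for H3K9me2 (115552 and 97835 against 60281 and 58080) and for H3K27me3 (186077 and 168848 against 153556 and 110851). The flank sums were higher in the second pair for G9a (143220 and 181287 against 213235 and 221435). The same held for H3K27me3 (377787 and 351148 against 526647 and 461882). For H3K9me2 they overlapped (56615 and 56079 against 54307 and 56207). The G9a and H3K27me3 ratios thus hold a difference in the flanks as well as in the window.

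**Figure D3:**
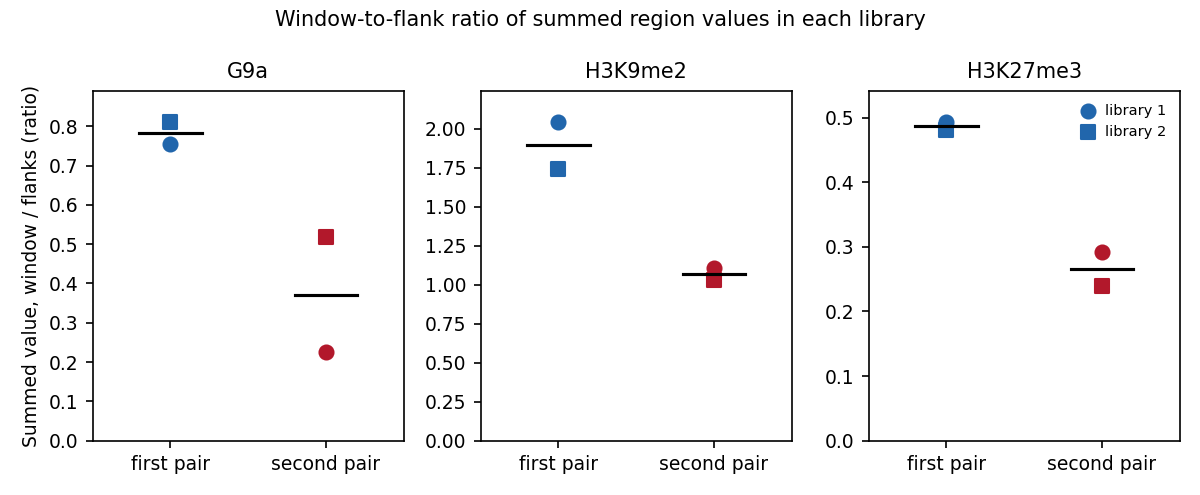
Ratio of summed region values, window over both flanks (y axis), in each library of the first pair (blue) and second pair (red), for G9a, H3K9me2 and H3K27me3; circles are the first and squares the second library of a pair, and bars are pair means. All first-pair ratios lie above all second-pair ratios, 0.755 and 0.810 against 0.225 and 0.518 for G9a.

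The 3 tables often pointed the same way at the same places. Of the 342 G9a regions higher in the first pair, 149 (43.6%) overlapped regions higher in the first pair in both other tables, against 4.82% of such G9a regions in the proximal flank, 5.88% in the distal flank and 4.70% in the whole table. For the opposite direction, 6 of 131 G9a regions (4.58%) overlapped regions higher in the second pair in both other tables. The shares were 8.85% in the proximal flank, 4.11% in the distal flank and 5.71% in the whole table. Longer regions and a lean shared by all tables both raise overlap in 1 direction, and neither was allowed for. Of the G9a regions 10.6% were 2 kb or longer in the window, against 6.03% in the flanks and 3.02% of the whole table. Against the whole tables, overlap in either direction was raised most between G9a and H3K9me2. Regions of the other table overlapped 57.5% of G9a and 77.8% of H3K9me2 window regions, against 19.8% and 31.2% of the whole tables. In the proximal flank these shares were 25.2% and 43.4%, and in the distal flank 10.3% and 59.7%. Between G9a and H3K27me3 the shares were 73.6% and 68.0%, against 55.7% and 35.5%, and the proximal flank had 70.6% of its G9a regions overlapped. Between H3K9me2 and H3K27me3 they were 79.3% and 57.5%, against 52.1% and 23.2%.

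Each zinc finger gene was then followed through the region with the smallest deposited p within 2500 bp of its body. G9a regions lay at 12 of the 13 genes, H3K9me2 regions at 11 and H3K27me3 regions at 13, and at every gene with a region the one with the smallest p was higher in the first pair. All of these were separated in the H3K9me2 and H3K27me3 tables and 10 of 12 in the G9a table. Their median log2 differences were -1.34 for G9a, -1.56 for H3K9me2 and -1.55 for H3K27me3. Zfp981 and Zfp993 shared their G9a region and their H3K27me3 region. The distinct regions thus numbered 11 for G9a and 12 for H3K27me3, and the medians count a shared region for each gene. The direction at the smallest p was not counted over all genes, and the shares that follow are for any region. A region higher in the first pair was found near 76.7% of all 21883 protein-coding genes for G9a, 48.2% for H3K9me2 and 58.3% for H3K27me3. Regions higher in the second pair also lay at many of the genes: 8 of 13 for G9a (55.5% of all protein-coding genes), 10 for H3K9me2 (38.8%) and 10 for H3K27me3 (50.5%). The genes of the cluster, with a median length of 37.4 kb, are longer than the median of 17.2 kb, and longer genes meet more regions.

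**Figure D4:**
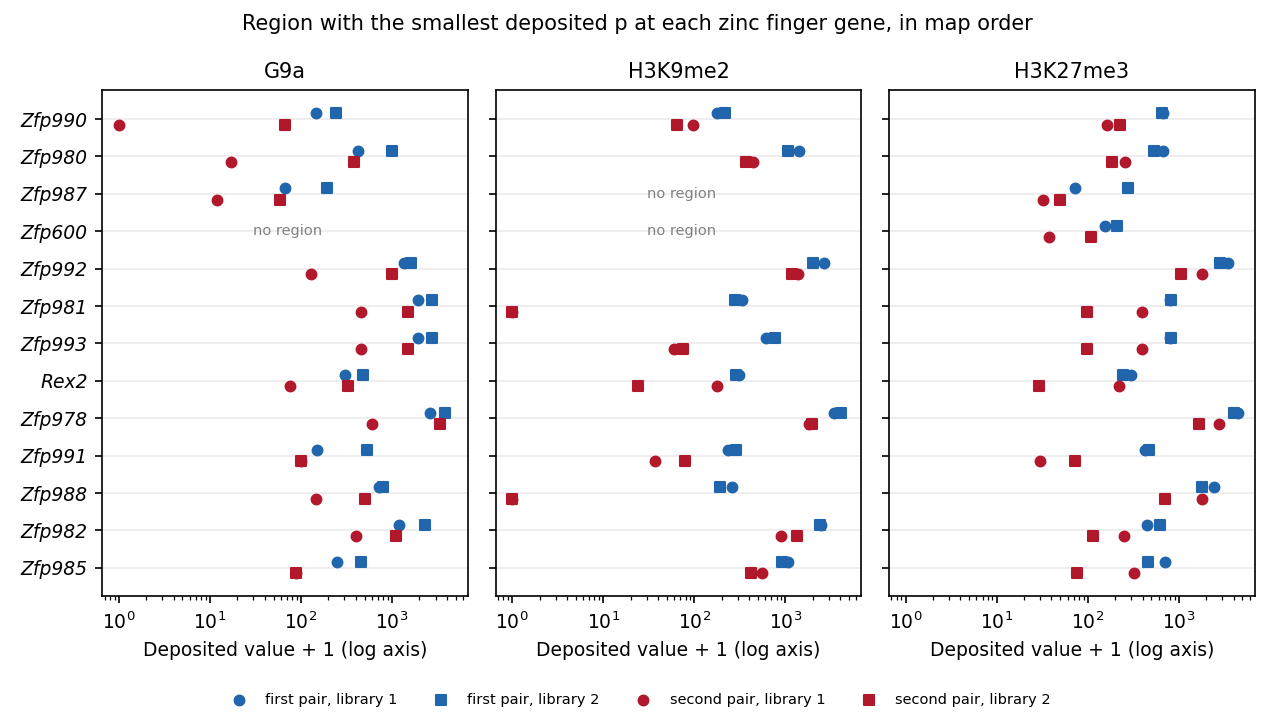
Values of the 4 libraries (x axis, deposited value plus 1, log axis) in the region with the smallest deposited p at each of the 13 zinc finger genes (y axis, map order) for G9a, H3K9me2 and H3K27me3. First-pair values (blue) lie right of second-pair values (red) except at Rex2 and Zfp978 for G9a, where the second library of the second pair (red squares) reaches above the lower first-pair value.

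The proximal genes of the cluster stand apart from each other. Zfp990 (chr4:145510759-145538251) had an H3K27me3 region (chr4:145525551-145528150) with 665 and 655 against 162 and 223, a log2 difference of -1.77. Its G9a region (chr4:145508901-145509750) had 146 and 243 against 0 and 66. At Zfp980 (chr4:145670697-145704437) an H3K9me2 region (chr4:145677901-145682250) had 1397 and 1064 against 439 and 368 (log2 -1.61). The values of the pairs did not overlap in any of these 3. The G9a region of Zfp980 (chr4:145686601-145689300) had 419 and 1010 against 16 and 381, with the lower first-pair value just above the higher second-pair value. Between the 2 genes, at the annotated gene Gm21978, an H3K27me3 region (chr4:145558051-145563200) had 1438 and 1409 against 676 and 258 (log2 -1.61).

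Few regions lay at Zfp987 and Zfp600. Zfp987 (chr4:146097312-146126624) had 3 G9a and 3 H3K27me3 regions, all higher in the first pair, and no H3K9me2 region. Its H3K27me3 region with the smallest p had 72 and 274 against 31 and 49. Zfp600 (chr4:146156827-146198756) had 1 region in all, of H3K27me3 (chr4:146185051-146185900), with 155 and 206 against 37 and 109. Its first promoter is the one nearly identical to that of Rex2, which lies at chr4:146973610-147060799. Rex2 had 9 G9a regions, all higher in the first pair, but its region with the smallest p was not separated, with 302 and 478 against 75 and 324.

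Around Zfp992, Zfp981 and the proximal part of Zfp993, long regions of the 3 tables lay over each other. At Zfp992 the G9a region (chr4:146447451-146451300) had 1357 and 1606 in the first pair against 127 and 993. The H3K27me3 region (chr4:146443151-146451400) had 3437 and 2823 against 1807 and 1063, and the H3K9me2 region (chr4:146443701-146450850) had 2662 and 1982 against 1388 and 1175. All 3 were separated, with log2 differences of -1.40, -1.12 and -0.86. Inside the annotated pseudogene Vmn2r-ps16 (chr4:146445134-146605510) and in no zinc finger gene, an H3K9me2 region (chr4:146492451-146497900) had 3363 and 2130 against 964 and 1239 (log2 -1.32). In the stretch shared by Zfp981 and Zfp993 a G9a region (chr4:146515001-146522650) had 1925 and 2759 against 455 and 1488 (log2 -1.27). Another one there (chr4:146528601-146532550) had 1450 and 1232 against 316 and 582 (log2 -1.58). Distal to it, an H3K9me2 region (chr4:146537051-146538200) was listed at 332 and 275 against 0 and 0, for which no fold is given.

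Among the regions higher in the first pair that were named by p in the window as a whole, the largest log2 difference fell in the distal part of Zfp993. There an H3K9me2 region (chr4:146892951-146895300) had 607 and 760 in the first pair against 59 and 74, a log2 difference of -3.34. Next in size came an H3K27me3 region of 1050 bp at Zfp991 (chr4:147176051-147177100), with 422 and 464 against 29 and 71 (log2 -3.12). The H3K9me2 region at the same place (chr4:147176101-147177050) had 235 and 283 against 36 and 77 (log2 -2.18). Both marks were thus low in both libraries of the second pair over the same kilobase.

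Zfp978 had 68 G9a, 60 H3K9me2 and 58 H3K27me3 regions, of which 55, 53 and 41 were higher in the first pair. Its longest named region, of H3K27me3 (chr4:147255651-147268100), had 4477 and 4031 against 2786 and 1666 (log2 -0.93). An H3K9me2 region of 9400 bp (chr4:147344451-147353850) had 3429 and 4037 against 1831 and 1965 (log2 -0.98). Regions of the opposite direction also lay in Zfp978. Within its body, a G9a region (chr4:147220951-147222800) had 151 and 488 in the first pair against 622 and 732 (log2 1.08). The H3K9me2 region over it (chr4:147219851-147222650) had 484 and 642 against 1085 and 887 (log2 0.81), and the next one (chr4:147224901-147226700) 371 and 486 against 676 and 922 (log2 0.90). These 3 were separated with the second pair higher. Between Rex2 and Zfp978 an H3K9me2 region (chr4:147078451-147079100) had 45 and 5 against 192 and 102 (log2 2.51), also separated.

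At Zfp988, inside Zfp978, an H3K9me2 region (chr4:147334551-147335350) had 255 and 191 against 0 and 0. Between Zfp978 and Zfp982, near Gm46898, lay the H3K9me2 region of the window with the smallest p (chr4:147415401-147422650), with 5224 and 3822 in the first pair against 2856 and 1735 (log2 -0.98). At Zfp982 (chr4:147443114-147516064) the H3K9me2 region with the smallest p (chr4:147517351-147523150) had 2451 and 2394 against 892 and 1344 (log2 -1.11). Overlapping its distal end, near the pseudogenes Vmn2r-ps20 and Gm13141, lay the G9a region of the window with the smallest p (chr4:147520351-147526750). It had 2292 and 3334 against 543 and 1715 (log2 -1.32). At Zfp985 (chr4:147553277-147585201) all 17 G9a regions were higher in the first pair, 13 of them separated. The one with the smallest p (chr4:147584651-147585750) had 249 and 456 against 87 and 88 (log2 -2.00).

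Of the 12 promoters, 8 were overlapped by a region of any table, as were 42.0% of all 32851 promoters. The printed promoter of Zfp982 start 2 lay in an H3K9me2 region (chr4:147491501-147493350) with 562 and 341 in the first pair against 50 and 50 (log2 -3.15). The H3K27me3 region there (chr4:147491751-147493250) had 479 and 383 against 229 and 200 (log2 -1.0). At the Zfp980 promoter, with the same 62-base run, no H3K9me2 region was listed, and the G9a values, 220 and 124 against 4 and 252, overlapped between the pairs. The Zfp981 promoter was split: its H3K9me2 region (chr4:146513201-146515200) had 646 and 793 against 192 and 304 (log2 -1.53), while the G9a region (chr4:146514251-146515000) had 123 and 354 against 193 and 480 and was not separated. The Zfp993 promoter lay in regions higher in the first pair in all 3 tables, each separated. At 2 promoters the 2 marks went opposite ways with separated values. At Zfp985, H3K27me3 (chr4:147551501-147553850) had 327 and 199 against 729 and 440 (log2 1.15), while H3K9me2 (chr4:147553251-147554100) had 150 and 208 against 71 and 52 (log2 -1.53). At Zfp982 start 1, the promoter rich in CpG, H3K27me3 (chr4:147442651-147444750) had 773 and 663 against 1072 and 825 (log2 0.40), while H3K9me2 (chr4:147443051-147444250) had 289 and 484 against 68 and 126 (log2 -1.98).

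Before the first zinc finger gene, 46 of 108 G9a, 19 of 45 H3K9me2 and 46 of 113 H3K27me3 regions were higher in the second pair, against 84 of 360, 53 of 295 and 86 of 364 over the zinc finger genes of the window. The former shares were close to those of the whole tables, in which 173035 of 388424, 108717 of 245088 and 235894 of 552542 regions were higher in the second pair. The one with the smallest p, of H3K27me3, lay at Tnfrsf1b (chr4:145243001-145254750), with 3265 and 2898 in the first pair against 6371 and 5017 (log2 0.89). At Tnfrsf8 an H3K27me3 region (chr4:145301801-145306750) had 617 and 1217 against 1961 and 1926 (log2 1.08). A short G9a region inside it (chr4:145302251-145302750) had 10 and 7 against 83 and 141, while the longer G9a region next to it (chr4:145303801-145306650), with 182 and 507 against 845 and 467, was not separated. Tnfrsf1b also had regions higher in the first pair, such as an H3K27me3 region (chr4:145223451-145226200) with 658 and 526 against 255 and 278. Tnfrsf1b and Tnfrsf8 encode receptors of the tumour necrosis factor family, the latter also known as CD30.

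The 4 zinc finger genes of the distal flank were higher in the first pair in their regions of smallest p, in all 3 tables, except at Zfp933 for G9a (21 and 13 against 27 and 126). This direction was not counted over all genes. The G9a and H3K9me2 regions of Zfp534 were not separated. Regions higher in the second pair lay at 3 of the 4 genes for G9a, 2 for H3K9me2 and 3 for H3K27me3. The shares of all protein-coding genes were 55.5%, 38.8% and 50.5%. At Zfp984 the H3K9me2 region (chr4:147792351-147795600) had 1179 and 1165 in the first pair against 663 and 436 (log2 -1.09), and the G9a region (chr4:147778951-147781650) had 589 and 619 against 32 and 299 (log2 -1.86). At Zfp933 an H3K27me3 region (chr4:147823501-147825050) had 354 and 315 against 10 and 80 (log2 -2.87). The values of the pairs did not overlap in any of these 3. Nppb and Nppa, which encode natriuretic peptides released by the loaded heart, lie beyond the last zinc finger gene. No G9a or H3K27me3 region was near them, and each had 1 H3K9me2 region, with log2 differences of 0.73 and 1.24. Further on, the G9a region with the smallest p of both flanks (chr4:148186701-148192350) had 348 and 875 against 2408 and 1135 (log2 1.53). At Disp3, the H3K27me3 region with the smallest p of both flanks (chr4:148248101-148261900) had 3411 and 3529 against 7872 and 7739 (log2 1.17).

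Zinc finger genes of other chromosomes were counted in the same way. Of 395 outside chromosome 4, 81.5% had a G9a region higher in the first pair, 50.9% an H3K9me2 region and 56.7% an H3K27me3 region, beside 76.7%, 48.2% and 58.3% of all protein-coding genes. Regions higher in the second pair were found at 41.3%, 40.0% and 36.7% of them, beside 55.5%, 38.8% and 50.5%. The 25 genes of proteins that work with KRAB zinc finger proteins had regions higher in the first pair at 22 (G9a), 12 (H3K9me2) and 13 (H3K27me3), and higher in the second at 10, 9 and 10. Trim28, the main KRAB corepressor, had G9a values of 109 and 282 against 1 and 189, which overlapped, and an H3K27me3 region of the opposite direction (10 and 125 against 183 and 114, also overlapping). Setdb1, the H3K9 methyltransferase brought in by Trim28, had a separated G9a region with 223 and 265 against 61 and 126 (log2 -1.37) and a separated H3K9me2 region of the opposite direction, with 4 and 39 against 64 and 61 (log2 1.5). Smarcad1, a chromatin remodeller, had a G9a region with 203 and 166 against 32 and 23 (log2 -2.70). Ehmt2, the G9a gene itself, had regions higher in the second pair for G9a, with 956 and 482 against 3000 and 1364 (log2 1.60), and for H3K9me2, with 548 and 781 against 2603 and 2160 (log2 1.84). Its H3K27me3 region with the smallest p had 174 and 142 against 81 and 58 (log2 -1.17). Ehmt1 went the other way in its G9a region of smallest p, with 214 and 241 against 3 and 81 (log2 -2.41). The same held for H3K9me2 (376 and 365 against 199 and 163, log2 -1.03). At Dnmt3b an H3K9me2 region had 259 and 482 against 2707 and 2553 (log2 2.82). Only some of the 25 genes are given here.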

How the data were processed

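Values came from 12 immunoprecipitated libraries. BWA 0.7.10-r789, SAMtools 1.1 and the build mm10 (GRCm38) are named in the submitters' processing notes. The region caller, its scaling and any input correction: not given in the sources used here. Each antibody has 1 headerless table in which the authors deposited coordinates, 4 whole-number values and a -log10 p (largest p 0.01) per region. Whether the values were scaled is not stated, so no count model was used. Column 6 is + exactly where the first pair's mean is higher. The columns name neither condition nor replicate. Inputs were not analysed here, and 4 mitochondrial regions were left out. Values summed to between 36881071 and 48327896 per G9a library, 22175663 and 23973355 per H3K9me2 library, and 112764904 and 143213031 per H3K27me3 library. These sums are not the sequencing depth, which the tables do not give. Whether the biological replicates were separate animals is not stated.

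The members and lists were chosen with earlier results of these data known. Computed here (Python 3.11.15, pandas 2.3.3) were pair means, log2 differences with a pseudocount of 1, separation, overlaps of 1 bp or more, library sums and Wilson intervals. Direction, log2 differences and overlaps were tested on simulated data. Separation, library sums and Wilson intervals were not. Regions named were, per table and direction, the 4 with the smallest deposited p, the one with the smallest p near each zinc finger gene, and the one in the flanks. Values of other regions (promoters, borders, neighbouring genes, corepressor genes) were chosen after they were seen. Genes came from RefSeq (GRCm38.p6), and promoters, GC and identity from its promoter table (Biopython 1.88). The labelled cell type could not be checked from tables of differing regions. Of 5 cardiomyocyte markers (median length 16.0 kb) 0 had an H3K27me3 region and 2 a G9a region in each direction, while of 5 markers each of endothelium, fibroblasts, leukocytes and smooth muscle with median lengths of 35.9 to 55.9 kb, 3 to 5 had H3K27me3 regions in a given direction. Among all protein-coding genes (17.2 kb) the shares were 58.3% and 50.5% for H3K27me3 and 76.7% and 55.5% for G9a, first and second pair. Alternatives were other scalings, p limits, pseudocounts, windows, flanks, overlaps and each library left out.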

Additional observations from a re-analysis of the deposited data

How the results depend on the processing

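Of 106 alternatives to 33 values, 79 moved the value by less than its interval or spread, 27 moved it and 0 reversed it. Among the 79 are the 3 window-to-flank ratios per covered kb, which cannot change by construction. Also among them are the shares of direction after scaling, which could hardly change for G9a and H3K9me2. For medians and ratios the spread allowed was wide. Without the first library of the second pair, the G9a median went from -0.81 to -0.21 and the log2 ratio from -1.07 to -0.60. Both count among the 79, so the tally does not measure how stable the sizes are. Restricting to a deposited -log10 p of 5 or more left 291 G9a and 223 H3K9me2 regions in the window and raised the share higher in the first pair to 79.4% for G9a, 86.5% for H3K9me2 and 78.3% for H3K27me3. It raised the share separated with the first pair higher to 49.5%, 74.4% and 63.2%, and moved the H3K9me2 median log2 difference to -1.29. Weighting by length gave 80.1% for G9a and 85.8% for H3K9me2. From the first to the last zinc finger gene, an alternative chosen after seeing the data, the shares were 76.7% for G9a and 76.4% for H3K27me3. Scaling the libraries to equal sums moved the median of all regions by -0.17 for G9a, 0.07 for H3K9me2 and -0.16 for H3K27me3. It moved no share of direction in the window. The smallest absolute log2 difference of any region was 0.202 for G9a and 0.166 for H3K9me2, more than these shifts. The shares of these 2 tables could thus hardly change, and their staying the same says little. It raised the separated share to 53.1% for G9a and 60.2% for H3K27me3, beside 40.8% and 44.9% of the whole tables.

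Leaving out each library in turn gave G9a shares of 60.7% to 80.5%, G9a medians of -1.66 to -0.21 and a log2 of the G9a window-to-flank ratio of -1.80 to -0.60. The lowest share, the smallest median and the smallest ratio came without the first library of the second pair, and the opposite ends without the second library of that pair. Without the second library of the first pair the G9a median was -0.53. The shares were 74.6% to 79.5% for H3K9me2 and 68.5% to 75.1% for H3K27me3, and the H3K27me3 median was -0.48 without the second library of the second pair. Requiring an overlap of 50% of the shorter region lowered the overlap to 49.0% (G9a on H3K9me2), 63.4% (G9a on H3K27me3), 69.5% (H3K9me2 on G9a), 72.0% (H3K9me2 on H3K27me3), 59.8% (H3K27me3 on G9a) and 51.9% (H3K27me3 on H3K9me2). Counting gene bodies alone left 8 corepressor genes with an H3K27me3 region higher in the first pair. No paired analysis was possible because the columns carry no replicate numbers and no test was run. The tables give no depth, so no floor could be set for values of 0.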
